A study of Saccharomyces cerevisiae with 12 samples.

Results

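The mitochondrial ribosome of budding yeast is built from RNA and many proteins, and nearly all of these are made from nuclear genes, among them the genes named *MRP*, *MRPL*, *MRPS* or *RSM* followed by a number. These names chose the genes described here. A gene was taken when its symbol had that form and a probe set of the array was paired with it and with no other *S. cerevisiae* gene. This gave 66 genes of the 5449 measured, each with 1 probe set, and the rule used no measured value. Of the 66, 37 encode proteins of the large subunit and 27 proteins of the small subunit. The other 2 carry the name but are set apart: *MRP8*, whose product is not a subunit of the ribosome, and *RSM22*, which encodes a methyltransferase-like protein that acts on the small subunit. Of the 64 structural proteins, 40 have a counterpart in the bacterial ribosome and 24 are specific to mitochondria. A further symbol of this form, *MRP35*, was not analysed here.

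Polyadenylated RNA was measured in *top1Δtop2ts*, *top1Δ*, *top2ts* and wild-type cells, 3 arrays of each strain, all derived from W303a. *top1Δ* lacks the gene of Top1p, *top2ts* carries a temperature-sensitive allele of *TOP2*, whose product Top2p is inactivated at the restrictive temperature, and the double mutant carries both. All 4 strains, wild-type included, were arrested in G1 with α-factor for 90 min at 25°C and then kept at 37°C with α-factor for 90 min, so the mutants differ from wild-type in their topoisomerases and share the heat and the pheromone. The labels call the 3 arrays of a strain biological replicates. The comparisons ask how much signal these genes keep when either or both topoisomerases are missing.

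Mitochondrial ribosomes translate the few messages of the mitochondrial genome, most of which encode subunits of the respiratory chain and of the ATP synthase. The nuclear genes for the ribosomal proteins lie scattered over the chromosomes, their messages are translated in the cytosol, many of them close to mitochondria, and the proteins are imported. The RNA-binding protein Puf3p binds the messages of many of them and speeds up their decay in cells that ferment glucose. Topoisomerases I and II relax the supercoils that RNA polymerases leave in front of and behind them.

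Signals were used as deposited, on a linear scale, and tested as log2 values with limma across all genes. A gene is said to have passed, risen or fallen when its p-value, adjusted by Benjamini and Hochberg over the 5449 genes, was under 0.05. *TOP1* had signals of 9.5, 0.2 and 0.8 in *top1Δtop2ts* and 0.8, 0.8 and 1.2 in *top1Δ*, against 1195, 731 and 1196 in wild-type, and its signals in *top2ts* overlapped those of wild-type. The *top2ts* strains still hold a *TOP2* gene, so its signal checks nothing. The 6 a-cell markers were present on every array, and the summed signal of 4 α-cell markers ran from 1164 to 1674 in *top1Δtop2ts*, 672 to 942 in *top1Δ*, 967 to 1452 in *top2ts* and 765 to 1396 in wild-type, with none of the 4 at 0 in any strain. The α-factor gene *MF(ALPHA)1* rose in *top1Δtop2ts*, with signals of 126, 93.8 and 141 against 26.2, 4.6 and 30.5 in wild-type, and the part of these markers in the values below was not tested. Replicate 2 was dim in every strain: its spike-in RNAs had a mean log2 signal of 8.46 to 8.72, against 9.32 to 9.59 on the other arrays. With this spread the standard error of a log2 change was 0.39 for every gene, and a fall had to reach -1.04 to pass in *top1Δtop2ts*. Therefore 2 further readings of the same arrays are given beside it. In the first, called relative here, each array was shifted to the same median gene, which removes array brightness and with it any change that all genes share. In the second, the replicate number was added to the fit as a block, which keeps the deposited scale.

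The 66 genes were readily measured. Their mean signals over the 12 arrays ran from 331 to 3227 with a median of 851, against 1090 for all genes, and the lowest single value was 151, while 95% of the values of the Tag control probe sets lay under 18.4. The median log2 signal of the members was 9.86, 9.10 and 9.83 in *top1Δtop2ts*, 9.84, 9.48 and 9.99 in *top1Δ*, 9.92, 8.89 and 9.54 in *top2ts*, against 10.17, 9.16 and 9.99 in wild-type. The 4 strains overlapped, and in each the second array was the lowest. Set against the median of all genes on the same array, the members' median stood at -0.15, -0.15 and -0.09 on the log2 scale in *top1Δtop2ts*, -0.33, -0.28 and -0.27 in *top1Δ*, -0.56, -0.59 and -0.55 in *top2ts*, against -0.48, -0.56 and -0.39 in wild-type. On this measure the 3 arrays of *top1Δtop2ts* lay above the 9 others, and *top1Δ* lay above *top2ts* and wild-type, which overlapped. As a share of the signal summed over all genes, the members held 0.663% ± 0.019 in *top1Δtop2ts*, 0.531% ± 0.026 in *top1Δ*, 0.439% ± 0.015 in *top2ts* and 0.494% ± 0.063 in wild-type (SD, n = 3 each).

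**Figure D1:**
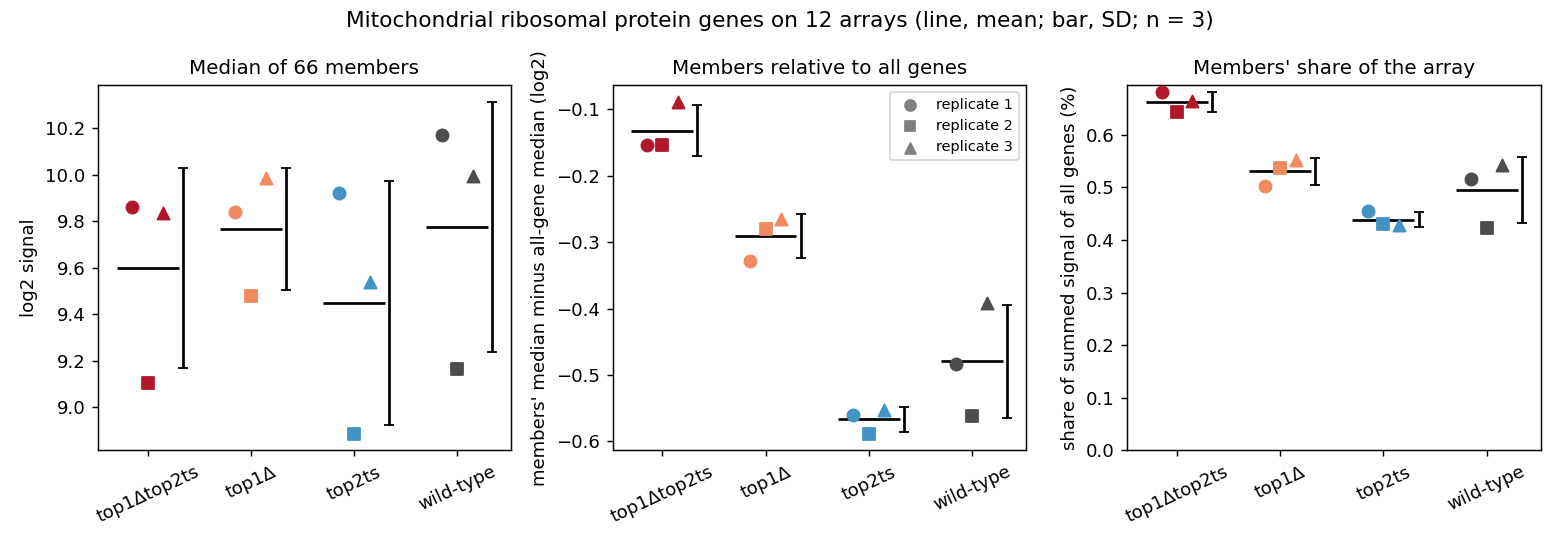
Median log2 signal of the 66 members on each array (left), the same minus the median of all genes on that array (middle) and the members' share of the summed signal of all genes in percent (right), by strain. Points are arrays, lines means and bars SD of 3 arrays. The left panel shows overlapping strains with replicate 2 lowest in each, and in the other panels the *top1Δtop2ts* arrays lie above all others, with a mean share of 0.663% against 0.494% in wild-type.

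In *top1Δtop2ts* the mitochondrial ribosomal protein genes kept more of their signal than most genes. The median member had a log2 change of -0.25 from wild-type, beside -0.54 for all genes, and 47 of the 66 members were below 0, or 71.2%, beside 85.6% of all genes. Their summed signal was 83.4%, 93.0% and 88.3% of that of the wild-type array with the same number, beside 63.2%, 61.3% and 72.2% for all genes together. None of the members passed by limma on the deposited scale, while 16.3% of all genes did. At an unadjusted p under 0.05, 2 members were below wild-type, beside 32.1% of all genes, and 0 above, beside 2.09% of all genes. The members' median was 0.02 without *top1Δtop2ts* replicate 2, which takes a dim array from only one of the strains compared. With all replicate 2 arrays left out it was -0.24. Members ran from -0.90 to 0.71 in log2 change. A lower signal from fewer cells and from less RNA per cell cannot be told apart on these arrays, although the methods state that equal numbers of cells were taken.

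Equal array medians added the same 0.52 to the log2 change of every gene in this comparison, members or not. In this relative reading 32 of the 66 members, or 48.5%, rose in *top1Δtop2ts* against wild-type, beside 21.7% of all genes, and 1 fell, beside 22.9% of all genes. The members' median was then 0.28, beside -0.02 for all genes. In same-numbered pairs of arrays 53, 59 and 47 of the 66 members lay above wild-type in relative signal, beside 51.5%, 45.5% and 48.9% of all genes. With the replicate block 17 members fell and 2 rose, beside 62.7% and 4.99% of all genes.

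*RSM26*, which encodes a mitochondria-specific protein of the small subunit, had the lowest log2 change in *top1Δtop2ts*. Its signals were 619, 307 and 558 in *top1Δtop2ts*, 886, 718 and 1033 in *top1Δ*, 1004, 479 and 740 in *top2ts*, against 1109, 712 and 870 in wild-type. The 3 double-mutant arrays lay below all wild-type and all *top1Δ* arrays, whatever their number, and it was the only member of which this held against wild-type, beside 28.7% of all genes. The log2 change from wild-type was -0.90 (95% interval -1.67 to -0.13) with an adjusted p of 0.091 from limma. It was also the single member that fell in relative signal (-0.37, adjusted p = 0.018 from limma), and it fell with the replicate block, with an adjusted p of 2.61e-04 from limma.

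*MRPL24*, for a large-subunit protein with a bacterial counterpart, had signals of 555, 284 and 456 in *top1Δtop2ts* against 997, 506 and 807 in wild-type. Each array was below the wild-type array of its number, and the groups overlapped only through the dim second wild-type array. The log2 change was -0.83 (95% interval -1.60 to -0.06), and its relative change of -0.31 did not pass (adjusted p = 0.076 from limma). *MRPL38*, for the large-subunit protein related to bacterial L14, had 1314, 624 and 808 in *top1Δtop2ts* against 1832, 894 and 1778 in wild-type, again lower in each pair and overlapping across pairs, with a log2 change of -0.71 (95% interval -1.48 to 0.06). Both fell with the block, with adjusted p-values of 6.94e-04 and 0.002 from limma. The genes with the next lowest changes, *MRP2*, *MRPL32* and *MRPS28*, lay between -0.63 and -0.62.

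At the other end stood *MRPL20*, which encodes a mitochondria-specific protein of the large subunit. Its signals were 583, 299 and 541 in *top1Δtop2ts*, 336, 242 and 301 in *top1Δ*, 379, 152 and 266 in *top2ts*, against 359, 184 and 325 in wild-type. The double mutant was the highest strain at each number, and only its dim second array lay within the range of the others. The log2 change from wild-type was 0.71 (95% interval -0.06 to 1.48) on the deposited scale, with an adjusted p of 0.18 from limma. Relative to the median gene it rose by 1.23 (adjusted p = 5.65e-06 from limma), more than any other member, and with the block it rose as well (adjusted p = 0.001 from limma). *MRPL33*, for the large-subunit protein related to bacterial L30, had 1227, 524 and 1108 in *top1Δtop2ts* against 767, 502 and 754 in wild-type, higher at each number with overlapping groups. Its log2 change was 0.43 (95% interval -0.34 to 1.20), its relative rise 0.96, and it was the other member that rose with the block (adjusted p = 0.037 from limma).

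Behind these 2 the largest relative rises were those of *MRP10*, *MRP20*, *RSM27* and *RSM19*, which ran from 0.84 to 0.93. That of *MRP20* was carried largely by the third array. Its signals were 1277, 658 and 2205 in *top1Δtop2ts* against 1198, 696 and 999 in wild-type. *MRP20* encodes the relative of bacterial L23, a protein at the exit of the peptide tunnel, and *MRP10* a small protein of the small subunit that is oxidised on import. Of the 32 genes 18 were of the large subunit, out of 37, and 12 of the small subunit, out of 27, and the other 2 were *MRP8* and *RSM22*. *MRP8* was the brightest member, with signals of 3424, 2301 and 3160 in *top1Δtop2ts* against 4155, 2674 and 3692 in wild-type.

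**Figure D2:**
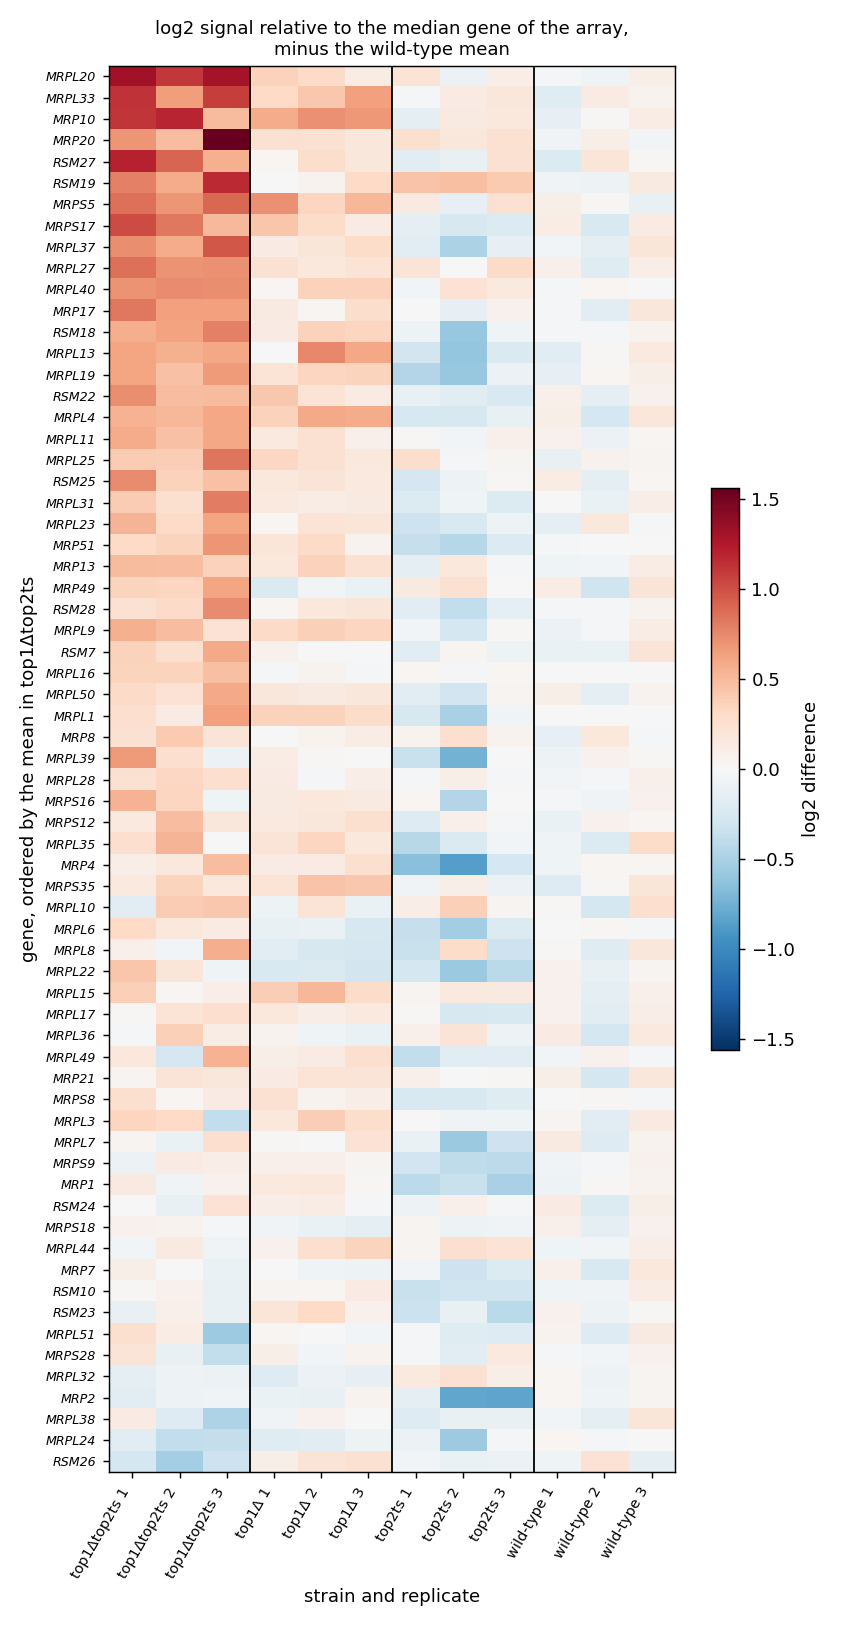
Log2 signal of each of the 66 members (rows) on each of the 12 arrays (columns) relative to the median gene of that array, minus the mean of the 3 wild-type arrays. Red is above and blue below wild-type. The *top1Δtop2ts* columns are red for most genes, with *MRPL20* highest at a mean of 1.23 and *RSM26* lowest at -0.37, and the *top2ts* columns are mostly pale blue, with *MRP2* and *MRP4* the lowest.

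**Figure D3:**
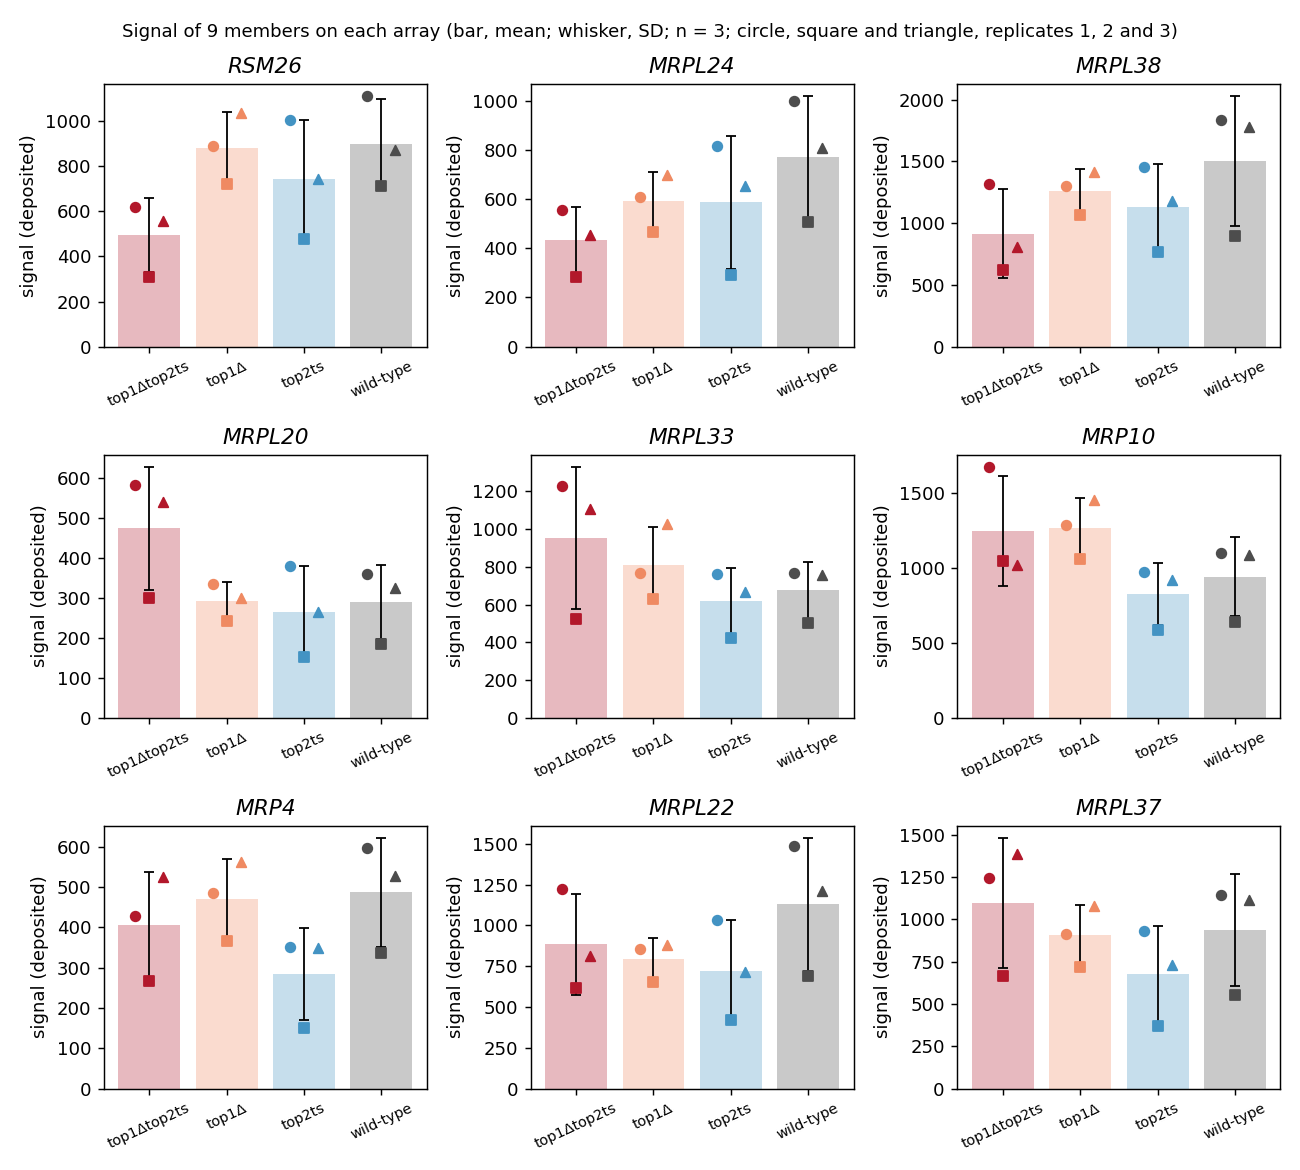
Signal as deposited (vertical axis, linear) of 9 members in the 4 strains. Bars are means, whiskers SD and points the 3 arrays, marked by replicate number. *RSM26* is lowest on the *top1Δtop2ts* arrays, *MRPL20* highest there, and *MRP4* lowest in *top2ts*, and replicate 2 is low in most panels.

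In *top1Δ* the members stood close to wild-type on the deposited scale and somewhat above it in relative signal. The median log2 change was -0.04, beside -0.17 for all genes, and it was above 0 without *top1Δ* replicate 2, wild-type replicate 1 or wild-type replicate 3, at most 0.14. With all replicate 2 arrays left out it was -0.20. Members ran from -0.45 to 0.46. None passed by limma on the deposited scale, beside 0.991% of all genes, and none reached an unadjusted p under 0.05, beside 6.15% of all genes. The median relative change was 0.16, beside 0.03 for all genes. In same-numbered pairs 50, 56 and 46 of the 66 members lay above wild-type in relative signal, beside 59.2%, 48.8% and 53.3% of all genes. At all 3 numbers 42 lay above, beside 30.8% of all genes, and 5 below, beside 25.2% of all genes. In relative signal 4 rose, beside 3.03% of all genes, and 0 fell, beside 6.35% of all genes, and with the replicate block 0 fell or rose, beside 12.4% and 0.569% of all genes. The 4 were *MRP10*, *MRPS5*, *MRPL4* and *MRPL15*, with relative rises of 0.66, 0.52, 0.51 and 0.40. *MRP10* had signals of 1286, 1058 and 1452 in *top1Δ* against 1097, 638 and 1086 in wild-type, higher at each number, and the groups overlapped only by the second *top1Δ* array. *MRPS5*, for the counterpart of bacterial S5, had 537, 310 and 497 in *top1Δ* against 490, 245 and 351 in wild-type, also higher at each number, with overlapping groups. In both genes the double mutant carried the relative rise too, at 0.93 and 0.82.

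The lowest *top1Δ* values were those of 3 large-subunit genes with bacterial counterparts, and none of them passed in any of the 3 readings. *MRPL22* had 854, 654 and 881 in *top1Δ* against 1488, 688 and 1212 in wild-type, with a log2 change of -0.45 (95% interval -1.21 to 0.32). *MRPL8* had 448, 317 and 444 in *top1Δ* against 710, 324 and 657 in wild-type (-0.42 (95% interval -1.19 to 0.35)). *MRPL6* had 497, 379 and 479 in *top1Δ* against 761, 404 and 612 in wild-type (-0.35 (95% interval -1.12 to 0.42)). In each gene all 3 *top1Δ* arrays were below the wild-type array of their number, the first by the most in signal units, and the groups overlapped.

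In *top2ts* nearly all members were below wild-type on the deposited scale. The median log2 change was -0.35, beside -0.22 for all genes, and 65 of 66 were below 0, beside 83.4% of all genes. The median was -0.05 without *top2ts* replicate 2, and -0.37 with all replicate 2 arrays left out. In relative signal the members' median was -0.12. In same-numbered pairs 21, 30 and 17 of the 66 members lay above wild-type in relative signal, beside 56.7%, 45.9% and 57.6% of all genes. In 51 members the *top2ts* signal was below the wild-type signal at all 3 numbers, beside 58.3% of all genes, and in relative signal this held for 27, beside 23.6% of all genes. None passed by limma on the deposited scale, beside 0.863% of all genes, and 2 were low at an unadjusted p under 0.05, beside 3.54% of all genes. In relative signal 4 fell, beside 2.77% of all genes, and 0 rose, beside 3.34% of all genes. With the replicate block 10 fell, beside 9.08% of all genes, and 0 rose, beside 1.12% of all genes. The 4 with a relative fall, *MRP2*, *MRP4*, *MRP1* and *MRPS9*, encode proteins of the small subunit, and all 4 were also among the 10 that fell with the block. Of those 10, 7 were of the small subunit, which holds 27 of the 66 members. The median log2 change in *top2ts*, given below, was not lower over the small-subunit genes than over the large-subunit genes. The subunits were not tested against each other.

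*MRP4*, the counterpart of bacterial S2, had signals of 352, 151 and 348 in *top2ts* against 596, 335 and 528 in wild-type. It was lower at each number, and only the dim second wild-type array lay within the *top2ts* range. The log2 change was -0.84 (95% interval -1.60 to -0.07), with a relative fall of -0.60 (adjusted p = 0.031 from limma). *MRP2*, the counterpart of bacterial S14, had 1246, 394 and 598 in *top2ts* against 1596, 784 and 1336 in wild-type, with a log2 change of -0.84 (95% interval -1.61 to -0.07). Here the first *top2ts* array stood close to wild-type in relative signal (-0.20, against -0.85 and -0.87 on replicates 2 and 3), and the fall rested on those 2 arrays.

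*MRPL22*, the counterpart of bacterial L22, which lines the peptide tunnel, was the third lowest, with signals of 1036, 419 and 713 in *top2ts* and a log2 change of -0.67 (95% interval -1.44 to 0.10). It fell with the block (adjusted p = 0.022 from limma) and not in relative signal (adjusted p = 0.069 from limma). *RSM19*, the counterpart of bacterial S19, was the one member above 0 in *top2ts*. Its signals were 1003, 506 and 744 in *top2ts* against 801, 413 and 756 in wild-type, a log2 change of 0.20 (95% interval -0.57 to 0.97) that passed in none of the 3 readings, and the third pair lay the other way in signal. Its relative signal was -0.51, -0.49 and -0.55 in *top2ts* against -1.01, -1.04 and -0.82 in wild-type, with no overlap.

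Against *top1Δ*, the double mutant shows what Top2p inactivation adds where Top1p is missing. The members' median log2 change was -0.13, beside -0.37 for all genes. None passed by limma on the deposited scale, beside 7.41% of all genes, and 1 was low at an unadjusted p under 0.05, beside 18.6% of all genes. The median was 0.07 without *top1Δtop2ts* replicate 2, and -0.06 with all replicate 2 arrays left out. In relative signal 21 rose, beside 21.9% of all genes, and 1 fell, beside 25% of all genes. The 21 are 31.8% of the members. With the block 11 fell and 1 rose, beside 47.1% and 9.01% of all genes. *RSM26* was the fall in relative signal (-0.55), and *MRPL20* the rise with the block, where its log2 change was 0.65 (95% interval -0.12 to 1.42) on the deposited scale.

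Other members with low values in this comparison were *RSM23* and *MRPL15*. *RSM23*, for a mitochondria-specific small-subunit protein, had 818, 552 and 768 in *top1Δtop2ts* against 1120, 916 and 1093 in *top1Δ*, a log2 change of -0.56 (95% interval -1.33 to 0.20) with no overlap between the groups. *MRPL15*, for a mitochondria-specific large-subunit protein, had 828, 387 and 644 in *top1Δtop2ts* against 928, 766 and 918 in *top1Δ* (-0.55 (95% interval -1.32 to 0.21)), with the first double-mutant array inside the *top1Δ* range. *RSM27*, for a mitochondria-specific small-subunit protein, was among the high ones, with 855, 414 and 515 in *top1Δtop2ts* against 424, 378 and 497 in *top1Δ* (0.40 (95% interval -0.37 to 1.17)), higher at each number. Its first array carried the largest difference.

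Against *top2ts*, which shows what the loss of Top1p adds once Top2p is inactive, the members stood higher in the double mutant. The median log2 change was 0.17, while the median of all genes was -0.32, and 19 of 66 members were below 0, or 28.8%, beside 74.4% of all genes. None passed by limma on the deposited scale, beside 8.83% of all genes, and 1 was high at an unadjusted p under 0.05, beside 4.09% of all genes. The median was -0.12 without *top2ts* replicate 2. In relative signal 45 members rose, beside 20.7% of all genes, and 2 fell, beside 24.4% of all genes. With the block 16 rose, beside 8.5% of all genes, and 3 fell, beside 41.3% of all genes. The 3 that fell with the block were *RSM26*, *MRPL32* and *MRPL44*. In 29 members the signal was above *top2ts* at all 3 numbers, beside 13.7% of all genes, and in relative signal this held for 48, beside 30.3% of all genes.

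*MRPL37*, for a mitochondria-specific large-subunit protein, had signals of 1245, 663 and 1386 in *top1Δtop2ts* against 930, 368 and 729 in *top2ts*. The double mutant was higher at each number, and its second array lay within the *top2ts* range. The log2 change was 0.73 (95% interval -0.04 to 1.50) and the relative rise 1.02 (adjusted p = 9.28e-05 from limma), next to 1.16 for *MRPL20*. *MRPL32*, the counterpart of bacterial L32, which matures by proteolysis inside mitochondria, had 613, 379 and 597 in *top1Δtop2ts* against 1043, 550 and 761 in *top2ts* (-0.55 (95% interval -1.32 to 0.22)), lower at each number. *MRPL44*, a mitochondria-specific protein of the large subunit, had 766, 516 and 709 in *top1Δtop2ts* against 1124, 648 and 968 in *top2ts* (-0.44 (95% interval -1.21 to 0.32)), also lower at each number, and it fell with the block but not in relative signal.

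Whether the double mutant departed from the sum of the single mutants was tested as an interaction on the log2 scale. The members' median departure was 0.19, beside -0.17 for all genes, and its direction turned without *top2ts* replicate 2, where it was -0.09. None passed by limma on the deposited scale, beside 2.33% of all genes, and none reached an unadjusted p under 0.05, beside 8.99% of all genes. In relative signal 16 members were above the sum, beside 14.4% of all genes, and 1, *RSM26*, was below it, beside 15.9% of all genes. The 16 are 24.2% of the members. With the block 3 were above and 0 below, beside 9.21% and 14% of all genes. The largest departures were those of *MRPL20* and *MRPL22*. *MRPL22* was low in both single mutants as given above, and its signals of 1223, 614 and 814 in *top1Δtop2ts* were below wild-type by a log2 change of -0.34. They were above *top1Δ* on replicate 1 and below it on replicates 2 and 3, and above *top2ts* at each number.

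In *top1Δtop2ts* the median log2 change was -0.24 over the 37 large-subunit genes and -0.25 over the 27 small-subunit genes, and in *top2ts* it was -0.38 and -0.32. Genes with a bacterial counterpart had a median of -0.25 and mitochondria-specific ones of -0.18 in *top1Δtop2ts*, and -0.38 and -0.27 in *top2ts*. The SD across genes was 0.33 in the large and 0.35 in the small subunit in *top1Δtop2ts*, and the classes were not tested against each other. Over all 66 the SD was 0.33 in *top1Δtop2ts*, 0.18 in *top1Δ* and 0.20 in *top2ts*, beside 0.62, 0.37 and 0.40 for all genes.

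Short genes stood somewhat higher in the double mutant. In the 22 members with the shortest coding sequences, 213 to 477 nucleotides, the median log2 change in *top1Δtop2ts* was -0.07 and 14 of 22 rose in relative signal. Between 486 and 810 nucleotides the values were -0.28 and 11 of 22, and between 837 and 1887 nucleotides -0.31 and 7 of 22. Across the 66 members the correlation of the change with the logarithm of coding length was -0.25 (Spearman -0.23), beside -0.09 (Spearman -0.07) over 5446 genes, and with the log2 wild-type signal it was -0.34 (Spearman -0.24), beside -0.33 (Spearman -0.32) over all genes. These are descriptions across genes that share arrays, and the signal in wild-type enters the change itself. *MRPS12* and *RSM19* were the one pair of members that neighbour each other on a chromosome, on the same strand. Their log2 changes in *top1Δtop2ts* were -0.25 for *MRPS12* and 0.32 for *RSM19*.

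Once array brightness was removed, the members also moved together across the 12 arrays, mostly between the strains and little within them. Over the 2145 pairs of members the median correlation of relative signal was 0.44, with a middle range of 0.12 to 0.70, beside 0.01 and -0.36 to 0.37 over all pairs of genes. The points share the 4 strains, and after subtraction of each strain's mean the members' median correlation was 0.09. The members most like the median profile of the 66 were *MRPL37* (r = 0.95 over 12 arrays), *MRPL4* (0.95), *RSM18* (0.94), *MRPL19* (0.93) and *RSM22* (0.92), each of them part of that median. The least like it were *MRPL32* (-0.72), *RSM26* (-0.43) and *MRPL24* (-0.28).

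Mitoribosomal genes with other names moved like the 66. The 14 measured, among them *IMG2*, *RML2*, *NAM9* and *EHD3*, stood at a median of -0.18 in *top1Δtop2ts*, -0.09 in *top1Δ* and -0.38 in *top2ts* (log2 change), and 0 of 14 passed on the deposited scale by limma in the 3 mutants. In relative signal 7 of the 14 rose and 1 fell in *top1Δtop2ts*, beside 21.7% and 22.9% of all genes. The fall was that of *IMG2*, whose signals were 674, 336 and 446 against 1159, 521 and 1012 in wild-type. *EHD3*, whose product was also described as a metabolic enzyme, had 1730, 962 and 1623 in *top1Δtop2ts* against 902, 643 and 896 in *top1Δ*, with no overlap in signal and an adjusted p of 0.20 from limma.

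The medians of other lists of mitochondrial gene expression and its regulators lay between that of the members and that of all genes. The median log2 change in *top1Δtop2ts* was -0.48 over 8 translation factors, -0.45 over 14 translational activators, -0.39 over 11 assembly proteins of the mitoribosome, -0.37 over 7 genes of mitochondrial transcription and RNA decay and -0.39 over 10 regulators, which include *PUF3* and *HAP4*. In relative signal these lists held 1, 2, 4, 1 and 1 genes that rose, beside 21.7% of all genes. They held 1, 1, 1, 1 and 0 that fell, beside 22.9% of all genes. Of the translation factors *AIM23*, for the mitochondrial initiation factor of the IF3 family, fell, with signals of 392, 217 and 289 in *top1Δtop2ts* against 906, 368 and 690 in wild-type (log2 change -1.08, adjusted p = 0.042 from limma). Of the activators *ATP22*, which promotes translation of the mitochondrial message for subunit 6 of the ATP synthase, fell against wild-type, with 824, 519 and 1013 in *top1Δtop2ts* against 2526, 1683 and 1924 in wild-type (-1.41, adjusted p = 0.006 from limma). *CBP1*, needed for the mitochondrial cytochrome *b* message, fell against *top1Δ*, with 311, 205 and 194 in *top1Δtop2ts* against 568, 426 and 585 in *top1Δ* (-1.17, adjusted p = 0.042 from limma). No gene of the assembly, transcription and regulator lists passed on the deposited scale by limma in *top1Δtop2ts* against wild-type, where *MRX8* (adjusted p = 0.060 from limma), *MTF1* (-0.97, 0.069) and *RTG3* (-0.82, 0.12) had the smallest adjusted p of their lists.

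The genes of the cytosolic ribosome, in contrast, lay below the median gene in the double mutant. The list was taken by symbol and holds *RPP1*, which encodes a subunit of RNase P and not of the ribosome, and without it 32 of 127 fell. Of the 128 measured, 32 fell and 0 rose on the deposited scale in *top1Δtop2ts*, where 16.3% of all genes passed either way. The median change was -0.83 on the log2 scale. With the replicate block 128 fell, beside 62.7% of all genes. In relative signal 52 fell and 0 rose, beside 22.9% and 21.7% of all genes. The relative median was -0.30, beside 0.28 for the mitochondrial members. *RPS9A*, for a protein of the small cytosolic subunit, fell the most by adjusted p, with signals of 922, 521 and 612 in *top1Δtop2ts* against 7156, 4813 and 6177 in wild-type (log2 change -3.17), followed by *RPS22B* (-2.65), *RPL41A* (-2.29) and *RPL4B* (-2.17). The single cytosolic gene that fell in *top1Δ*, where 0.991% of all genes passed, was *RPL22B* (-1.43). In *top2ts* the order was turned: the mitochondrial members had a median of -0.35 and the cytosolic genes one of -0.17. The 42 nuclear genes of the respiratory chain and the ATP synthase had a median of -0.44 in *top1Δtop2ts*, where 4 fell and 0 rose (25 and 1 with the replicate block). Over all genes 16.3% passed either way on the deposited scale, and 62.7% fell and 4.99% rose with the block. With the block falls were thus no more frequent in this list than among all genes. Their median was -0.09 in *top1Δ*, while *top2ts* gave 0.10. Among the 4, next to *ATP22*, which this list shares with the activators, and *ATP16*, *ATP19*, for a small subunit of the ATP synthase, had 432, 200 and 378 in *top1Δtop2ts* against 1528, 703 and 821 in wild-type (-1.58, adjusted p = 0.002 from limma), and *COX8*, for a subunit of cytochrome *c* oxidase, had 1149, 681 and 606 against 2557, 1434 and 2045 in wild-type (-1.33, adjusted p = 0.010 from limma). No test was made of the difference between one list and another.

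**Figure D4:**
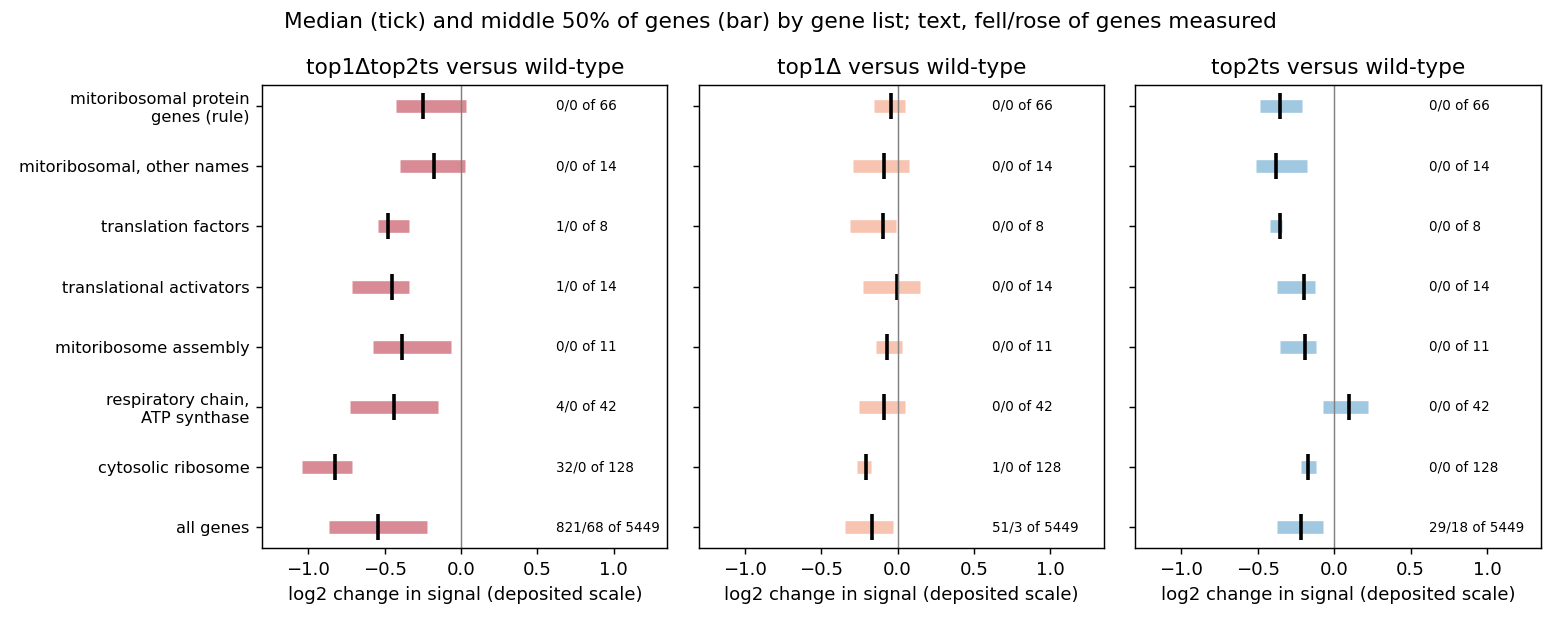
Median (tick) and middle 50% of genes (bar) of the fitted log2 change from wild-type, on the deposited scale, in *top1Δtop2ts*, *top1Δ* and *top2ts*, by gene list, with the number of genes that fell and rose. In *top1Δtop2ts* the mitoribosomal lists lie to the right of all genes (median -0.25 for the 66, beside -0.54) and the cytosolic ribosome to the left (-0.83), and in *top2ts* the 66 (-0.35) lie to the left of the respiratory list (0.10).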

How the data were processed

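RNA of 12 cultures was hybridised to Affymetrix Yeast Genome 2.0 arrays. The deposited values are intensities, not log-transformed, that the authors computed with the MAS5 algorithm in the Affymetrix GeneChip Operating software, whose version is not given in the sources used here. The methods describe external normalization to poly-A RNAs added to equal numbers of cells, yet spike-in intensities still differed between the arrays. The platform annotation gave 1 *S. cerevisiae* gene for 5498 of 10928 probe sets and several for 1, left out here, and 3683 had no entry in it. Several probe sets of 1 gene were averaged as log2 values, 12 symbols were updated, and 4 values of 0 were set to 0.1, none of them in a member. The number of arrays limits the precision.

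limma 3.58.1 (R 4.3.3) was fitted to log2 intensities of all 12 arrays, with 1 mean per strain, 8 residual degrees of freedom and no block, as the methods name no test, with two-sided p-values adjusted over 5449 genes. The steps were tested on simulated data with independent noise for each gene and array. Such data hold no shared array brightness, so this did not test how the fit handles the dim replicate 2. Alternatives were equal medians, scaling to 42 spike-in probe sets, quantile normalization, the replicate block, a trend in the prior, a filter at the 95th percentile of 17 Tag probe sets, the brightest probe set per gene, fits of 2 strains only and leaving out each array. Leaving out all replicate 2 arrays and combining equal medians with the block, and dropping *RPP1* from the cytosolic list, were added after seeing the data. Replicate numbers were taken to mark the 3 independent experiments of the methods, which the labels do not state. After subtraction of the strain means, 10 of the 18 pairs that share a number correlated above 0.1 (range -0.03 to 0.44), and 10 of 12 arrays matched best with their own number. Correlations between arrays ran from 0.904 to 0.992, and 0 pairs held identical values.

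The members and the lists (other mitoribosomal proteins, translation factors, activators, assembly, transcription and RNA decay, regulators, cytosolic ribosome, respiratory chain, a-cell, α-cell and pheromone genes) were chosen with earlier results of these data known. The 5 pheromone genes had a median log2 change of 0.09 in *top1Δtop2ts*, 0.11 in *top1Δ* and 0.70 in *top2ts*, and 0 passed by limma in the 3 mutants, with 0, 0 and 2 high at an unadjusted p under 0.05. The 6 a-cell markers had medians of -0.10, -0.09 and 0.09, and 0 passed, with 0 at an unadjusted p under 0.05. Genes were named by rule: per comparison, the 5 largest falls and 3 largest rises among members that passed, filled up to 3 falls and 2 rises by size of change, and in other lists up to 4 genes that passed or the 2 with the smallest adjusted p. Other named members were chosen after their values were seen. Names and coding lengths came from assembly R64 of RefSeq, and all 66 lengths are multiples of 3. No sequence is shown.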

Additional observations from a re-analysis of the deposited data

Results flagged for a closer look

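When the replicate number entered the fit as a block, *top1Δtop2ts* differed from the sum of the single mutants in 3 members, all above it. With the block 9.21% of all genes were above the sum and 14% below it, so 3 of 66 members is a smaller share than either. On the deposited scale without the block 0 members differed, beside 2.33% of all genes. The departure of *MRPL20* was 0.81 (adjusted p = 0.019 from limma with the block, 0.83 without it), and the gene was at 0.71 in *top1Δtop2ts*, 0.06 in *top1Δ* and -0.17 in *top2ts*, all log2 changes from wild-type. The departure of *MRPL22* was 0.77 (adjusted p = 0.031 from limma with the block, 0.87 without it), with changes of -0.34, -0.45 and -0.67 in the same order. The departure of *MRPL37* was 0.73 (adjusted p = 0.041 from limma with the block, 0.91 without it), with changes of 0.23, 0.01 and -0.50. In relative signal the departures were 0.90, 0.86 and 0.81. These are the same values plus the 0.09 that equal medians add to every gene here, so they are no separate evidence. Their cause was not tested.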

How the results depend on the processing

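On the deposited scale 0 members passed in the 6 comparisons, and this held with an intensity trend, the Tag filter, the brightest probe set and, in the 5 comparisons of 2 strains, those strains alone. Array scaling and the block changed it. In *top1Δtop2ts* against wild-type 33 members passed with equal medians, 35 with quantile normalization, 18 with spike-in scaling, 19 with the replicate block, 35 with both equal medians and the block and 22 without the replicate 2 arrays. Nearly all of the 33 were rises and most of the 19 were falls. Of all genes 21.7% rose and 22.9% fell with equal medians, and 4.99% rose and 62.7% fell with the block. Shares of all genes are given here for these 2 settings only, so counts under the other settings cannot be read as more or fewer than among all genes. In *top1Δ* against wild-type the counts were 4 with equal medians, 6 with quantile normalization and 5 with equal medians and the block. In *top2ts* against wild-type they were 4 with equal medians, 6 with quantile normalization, 2 with spike-in scaling, 10 with the replicate block and 6 with both. In *top1Δtop2ts* against *top1Δ* they were 22, 22, 7, 12 and 24 in this order, and 3 without the replicate 2 arrays. In *top1Δtop2ts* against *top2ts* they were 47, 48, 12, 19 and 46, and 4 without the replicate 2 arrays. For the departure they were 17 with equal medians, 19 with quantile normalization, 3 with the replicate block and 20 with both. For all genes the shares with equal medians that rose and fell were 3.03% and 6.35% in *top1Δ* and 3.34% and 2.77% in *top2ts*. They were 21.9% and 25% against *top1Δ*, 20.7% and 24.4% against *top2ts* and 14.4% and 15.9% for the departure. With the block they were 1.12% and 9.08% in *top2ts* and 9.01% and 47.1% against *top1Δ*. Against *top2ts* they were 8.5% and 41.3%, and for the departure 9.21% and 14%. Leaving out 1 array gave 0 to 3 members in *top1Δtop2ts* against wild-type (*RSM26*, *MRPL24* and *MRPL38* without wild-type replicate 2, and *RSM26* without *top2ts* replicate 2) and 0 in the others.

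The members' median in *top1Δtop2ts* against wild-type was -0.25, and 0.32 with quantile normalization, 0.28 with equal medians and -0.31 with spike-in scaling. It was -0.23 as the mean of 3 fold changes and -0.24 with all replicate 2 arrays left out. With 1 array left out it ran from -0.50 to 0.02, above 0 without *top1Δtop2ts* replicate 2. The range was -0.34 to 0.14 in *top1Δ*, above 0 without *top1Δ* replicate 2, wild-type replicate 1 or wild-type replicate 3, and -0.66 to -0.05 in *top2ts*. It was -0.29 to 0.07 against *top1Δ*, above 0 without *top1Δtop2ts* replicate 2, -0.12 to 0.46 against *top2ts* and -0.09 to 0.52 for the departure, below 0 in both without *top2ts* replicate 2. The 19 members named by rule kept their direction in 240 values under 10 other settings, but not all of these settings could turn it. The block, the trend, the Tag filter, the brightest probe set and the 2-strain fits leave a member's log2 change as it is. The members were also picked by the size of these same changes. In the fits with 1 array left out *RSM19* in *top2ts* ran between -0.11 (without wild-type replicate 2) and 0.46, and was -0.04 without *top2ts* replicate 1. Dropping *RPP1* from the cytosolic list, chosen after seeing the data, left 32 falls. The cause of these shifts was not tested. Signals of all members stood far above the Tag controls. Array brightness differed and each strain had 3 arrays, and what limits these values was not tested.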
